A study of Mus musculus with 18 samples.

Results

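The RNA of 10 genes that mark endothelial cells was followed in sorted mouse colon epithelium: Flt1, Kdr, Tek, Tie1, Eng, Pecam1, Cdh5, Esam, Emcn and Plvap. They were taken by symbol from the probe table, which lists 30869 gene symbols on Illumina MouseWG-6 BeadChips; the rule is the symbol alone. The array carries 14 probes for them, 12 of which were bright enough to be tested, and each of the 10 genes kept at least 1 tested probe. Colon cells positive for EpCAM and negative for CD45, CD3 and a macrophage antigen were purified by flow cytometry, and the methods state that purity was checked before RNA was extracted. The gate selects for an epithelial surface protein, which endothelial cells are not known to carry; lineage markers are also named as excluded, and which ones is not given in the sources used here. The groups were wild type mice without treatment (Naive_WT), Mbd2KO mice without treatment (Naive_KO), wild type mice given 2% dextran sulphate sodium, DSS, a polymer that damages the gut lining (DSS_WT), and Mbd2KO mice given 2% DSS (DSS_KO). In Mbd2KO mice every cell lacks Mbd2, a protein that binds methylated CpG. All mice had a C57BL/6 background and were matched for age and sex, and were kept with littermates where possible; the methods give 1 age range for all experiments and not the ages of these groups. Each group held 4 samples; the series record gives 1 to 5 mice per sample, while the methods give a wider range over all the sorted populations.

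Endothelial cells line blood and lymph vessels, and below the colon epithelium they form a dense capillary net and the venules through which leukocytes enter inflamed tissue. They sense VEGF through the receptor tyrosine kinases encoded by Flt1 and Kdr, and angiopoietins through Tek, whose relative Tie1 has no well-defined ligand of its own. Cdh5, Pecam1 and Esam hold neighbouring cells together, Eng is a co-receptor for BMP and TGF-beta ligands, and Emcn and Plvap are surface proteins of capillaries and venules.

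A probe reads only the stretch of transcript that it pairs with, and the probes of both VEGF receptors differed in this respect. Flt1 has a probe at position 6214 of its listed transcript (chr5:148373788-148373837, reverse strand), detected on 18 of 18 arrays, and a probe further upstream (position 3232, chr5:148393702-148393751, reverse strand), detected on 0 of 18. Kdr has a probe detected on 14 of 18 arrays (position 5377, chr5:76329319-76329368, reverse strand) and a probe listed for another transcript record, with no genome position, that was detected on 0 of 18. Positions are those of the deposited table, whose genome build is not given in the sources used here, so exon and UTR could not be assigned. The first 30 of the 50 bases of these probes are shown. The bright and the silent probe are listed at different positions for Flt1 and for different transcript records for Kdr. No base is marked by capitals.
Flt1, ILMN_1227926, detected: gctatcgggattctctggttctgcttaaag
Flt1, ILMN_2732721, not detected: ccctcaccatggaagacctgatttcctaca
Kdr, ILMN_2665788, detected: tctactgtatcctttagaattttaacctat
Kdr, ILMN_2572649, not detected: cgtgataaccagaggctgaccctttccggc

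All levels below are log2 normalized signals, and since probes pair with their targets to different degrees, a level is compared between groups and never between probes. A gene with more than 1 tested probe is given by the brighter one. The lowest log2 signal among probes detected on an array lay between 4.86 and 5.05, and between 18851 and 20618 probes were detected per array. The epithelial marker Cdh1 had group means from 12.09 to 12.48 and Epcam from 6.83 to 7.45. The Mbd2 probe was detected on 0 of 18 arrays (group means of 4.40 to 4.50), so it could not check the genotypes. Of the 10 endothelial genes, 8 were detected on every array, whereas Kdr was missed on some and Tie1 was detected on 7 of 18. RNA of these 8 genes was thus present in every sample of the sorted epithelium.

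**Figure D1:**
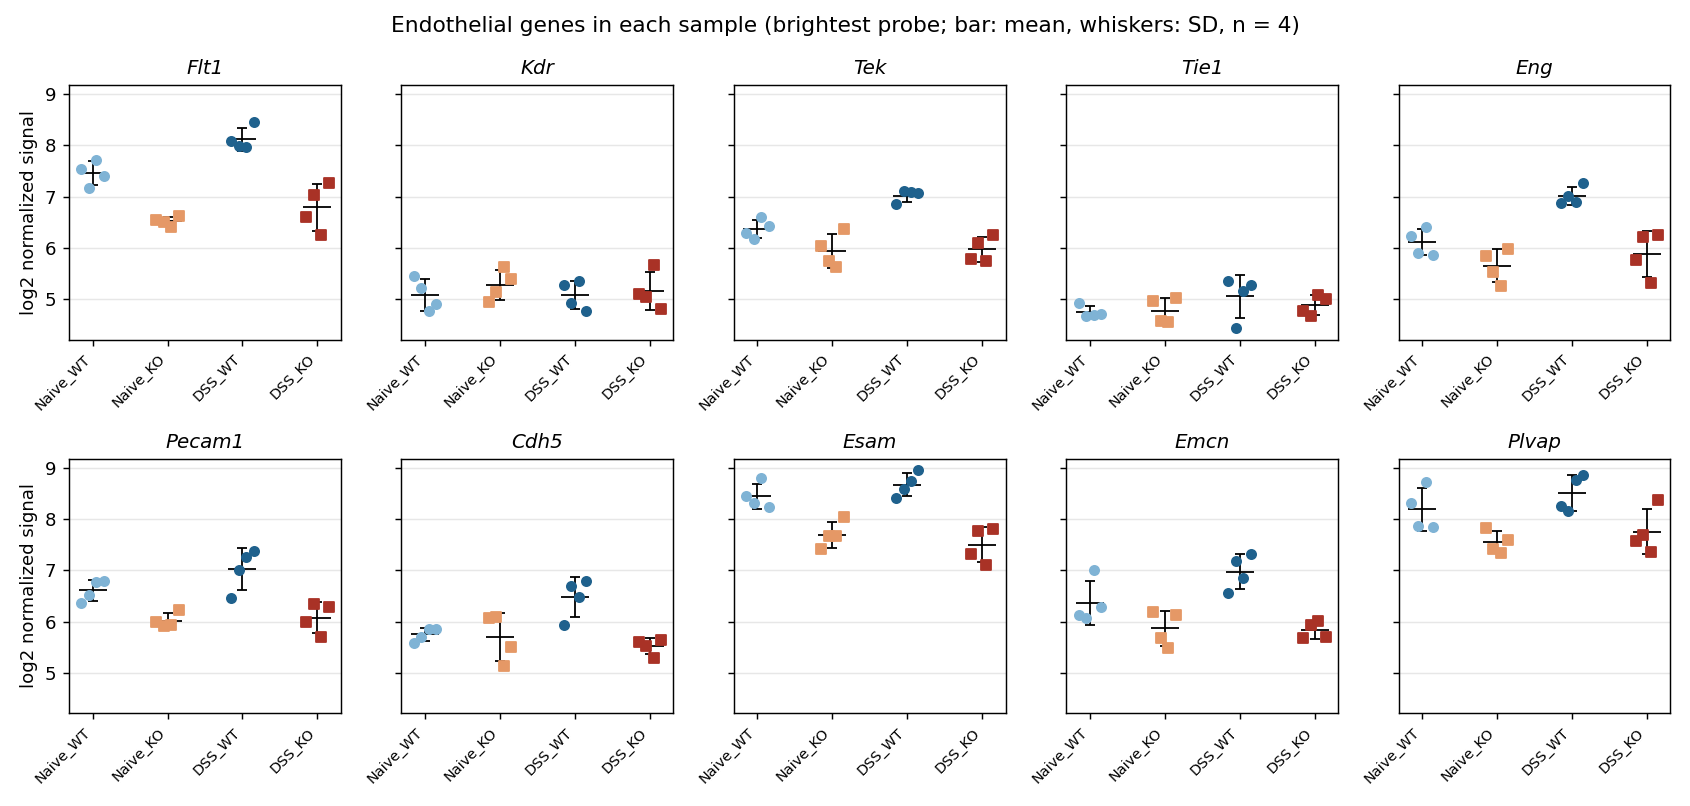
Each point is 1 sample; the vertical axis is the log2 normalized signal of the brighter probe of each of the 10 genes, and the horizontal axis gives the 4 groups. Bars are means and whiskers SDs (n = 4); the 4 DSS_WT samples lie above the 4 DSS_KO samples in 7 genes, and Kdr and Tie1 stay near the detection limit in all groups.

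The comparison of DSS_KO with DSS_WT asks what the lack of Mbd2 changes in this sorted population during colitis. In it, DSS_KO had lower levels of 7 of the 10 endothelial genes and higher levels of 0, at an adjusted p under 0.05 (limma, Benjamini-Hochberg over all 21938 tested probes). Across all tested probes, 3.17% were lower at that threshold. By the thresholds of the methods, an adjusted p under 0.01 and an absolute log2 fold change of at least 1, 5 genes were lower: Flt1, Esam, Emcn, Eng and Tek. Of all tested probes, 0.36% were. In those same 7 genes the groups did not overlap, as was true of 8.29% of all tested probes in this direction. The 10 genes had a median log2 fold change of -1.01, against -0.00336 over all probes; with no background correction the median was -0.52 and 0 genes passed the thresholds of the methods. Without DSS_KO replicate 5 the number called by the methods' thresholds dropped to 1, without DSS_KO replicate 7 to 2, and without DSS_WT replicate 2 or DSS_WT replicate 4 to 3. It came to 0 where the background was left uncorrected, a setting that shrinks every fold change, while the 7 genes kept an adjusted p under 0.05 in all 26 alternative fits.

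Among the VEGF receptors, Flt1, a receptor that binds VEGF-A tightly and signals weakly, had the largest fall of the 10 genes. This ranking did not hold in every alternative fit. Over 26 such fits the weakest log2 fold change was -0.85 for Flt1 and -0.86 for Esam. Flt1 read 8.08, 7.99, 7.97 and 8.46 in DSS_WT and 6.61, 7.03, 6.25 and 7.27 in DSS_KO. The lowest DSS_WT sample stood above the highest DSS_KO sample. The log2 fold change was -1.33 (SE 0.186, 95% confidence interval -1.73 to -0.94, adjusted p = 0.00156), a level 2.52-fold lower in DSS_KO. Kdr, the main signalling receptor for VEGF-A, showed no such difference. Kdr read 5.27, 4.92, 5.35 and 4.77 in DSS_WT and 5.11, 5.04, 5.66 and 4.81 in DSS_KO, and the groups overlapped throughout. Its log2 fold change was 0.08 (95% confidence interval -0.35 to 0.51, adjusted p = 0.867), an interval that does not reach the fall of Flt1. Since the Kdr probe sits close to the detection limit, its fold change can understate a difference in RNA. The sign of this value turned in 4 of 26 alternative fits.

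Tek, the angiopoietin receptor also called Tie2, read 6.85, 7.10, 7.08 and 7.06 in DSS_WT and 5.78, 6.10, 5.74 and 6.25 in DSS_KO. The DSS_WT samples were tightly grouped and all above DSS_KO, and the log2 fold change was -1.05 (SE 0.161, adjusted p = 0.00217). Its relative Tie1 had levels of 5.35, 4.44, 5.16 and 5.28 in DSS_WT and of 4.78, 4.67, 5.09 and 5.01 in DSS_KO. These groups overlapped, with a log2 fold change of -0.17 (95% confidence interval -0.55 to 0.21, adjusted p = 0.638). The Tie1 probe was detected on 4 of 5 DSS_WT arrays and 2 of 5 DSS_KO arrays. Eng, endoglin, whose loss causes vessel malformations, read 6.88, 7.01, 6.90 and 7.26 in DSS_WT against 5.76, 6.21, 5.31 and 6.25 in DSS_KO. Eng fell by 1.13 on the log2 scale (SE 0.204, adjusted p = 0.00504), with no overlap.

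The 3 junction genes were all lower in DSS_KO. Esam, a cell adhesion molecule of tight junctions in endothelium and platelets, read 8.41, 8.58, 8.75 and 8.95 in DSS_WT and 7.32, 7.76, 7.10 and 7.81 in DSS_KO. The groups were fully apart, and Esam fell by 1.17 (SE 0.181, adjusted p = 0.00228), which is 2.26-fold. For Pecam1, or CD31, which endothelial cells share with platelets and some leukocytes, the levels were 6.47, 7.00, 7.26 and 7.38 in DSS_WT and 5.99, 6.35, 5.70 and 6.29 in DSS_KO. The closest samples of both groups were 6.47 and 6.35, and the log2 fold change was -0.95 (SE 0.186, adjusted p = 0.00862). A second Pecam1 probe, listed for another transcript, gave a similar value of -0.92 (adjusted p = 0.0150). Cdh5, VE-cadherin, the cadherin of endothelial adherens junctions, read 5.94, 6.70, 6.49 and 6.79 in DSS_WT and 5.60, 5.53, 5.29 and 5.64 in DSS_KO. The groups did not overlap. The log2 fold change was -0.96 (95% confidence interval -1.40 to -0.53, adjusted p = 0.0129), and a dimmer probe of Cdh5 gave -0.79 (adjusted p = 0.0216).

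Of the surface proteins, Emcn, endomucin, a sialomucin of capillary and venous endothelium, read 6.55, 7.18, 6.85 and 7.31 in DSS_WT and 5.69, 5.93, 6.01 and 5.70 in DSS_KO. Emcn fell by 1.14 (SE 0.213, adjusted p = 0.00628), and the groups were apart. Plvap, which forms the diaphragms of fenestrated capillaries, read 8.25, 8.16, 8.76 and 8.85 in DSS_WT and 7.57, 7.69, 7.35 and 8.37 in DSS_KO. DSS_KO replicate 8 lay above the lower DSS_WT samples. The log2 fold change of Plvap was -0.76 (95% confidence interval -1.25 to -0.27, adjusted p = 0.0663), past an unadjusted threshold of 0.05 but not past the adjusted one. Which cells of the sorted samples held this RNA was not tested, and in bulk samples fewer cells of a type and less RNA per cell cannot be told apart.

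**Figure D2:**
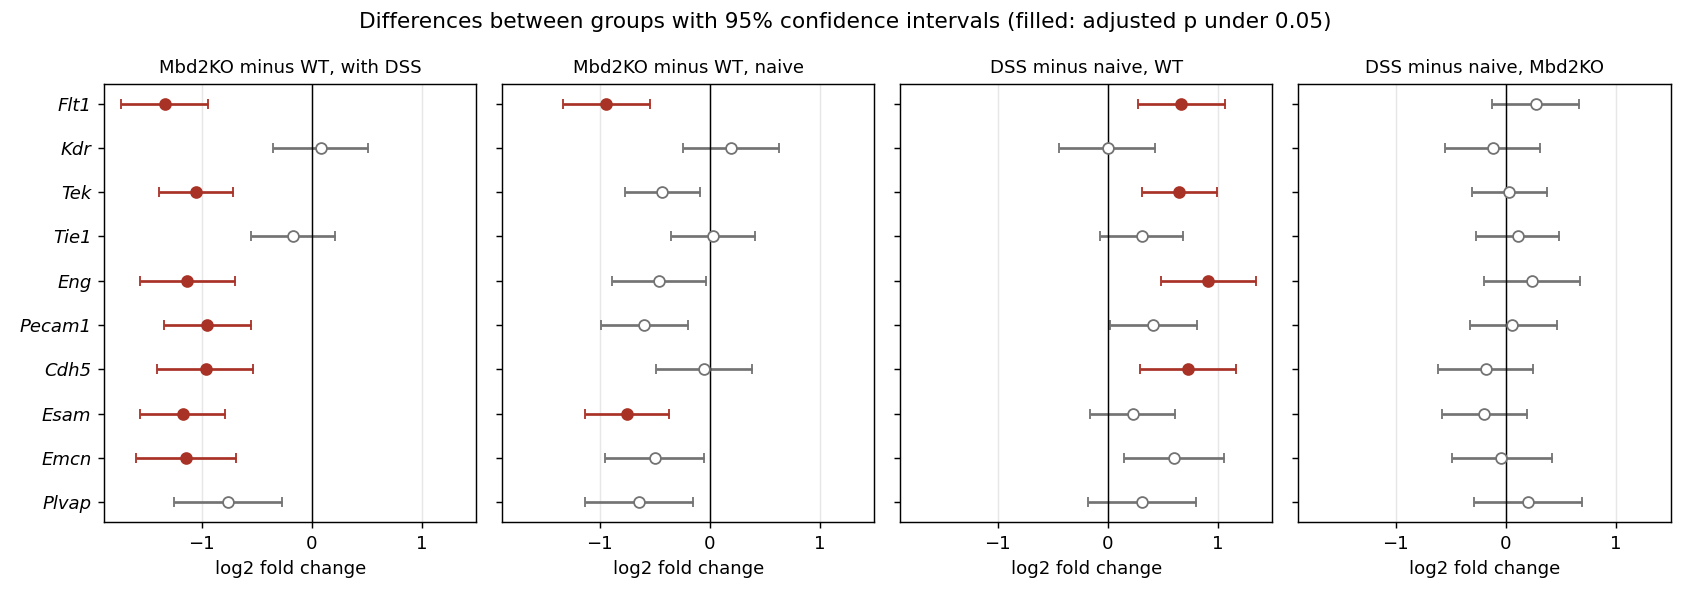
Log2 fold changes of the 10 genes (points) with 95% confidence intervals (lines) in 4 comparisons, each named above its panel; filled points have an adjusted p under 0.05. The first panel has 7 filled points, all left of 0, the second has 2, the third has 4, all right of 0, and the fourth has 0.

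Without DSS, the same genotype comparison gave smaller values. Here 2 of the 10 genes, Flt1 and Esam, were lower in Naive_KO at an adjusted p under 0.05, a threshold that 2.77% of all tested probes passed in this direction. By the methods' thresholds 0 of 10 were lower (0.255% of all probes), and 7 of 10 had an unadjusted p under 0.05 (limma), as did 22.8% of all probes in either direction. Flt1 read 7.54, 7.16, 7.72 and 7.41 in Naive_WT and 6.54, 6.51, 6.41 and 6.62 in Naive_KO. The 4 Naive_KO samples were close together and all below Naive_WT, and the difference was -0.94 on the log2 scale (SE 0.186), with an adjusted p of 0.0107. Esam read 8.44, 8.31, 8.79 and 8.24 in Naive_WT and 7.42, 7.67, 7.66 and 8.03 in Naive_KO. The groups were apart, and the log2 fold change was -0.75 (SE 0.181, adjusted p = 0.0263). This call for Esam was lost in 7 of 26 alternative fits, among them those without Naive_WT replicate 10 or 11 or without Naive_KO replicate 13, 14 or 15, which leave 1 gene past the threshold.

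Pecam1 and Plvap also had naive groups that did not overlap, which makes 4 genes of 10, against 5.55% of all tested probes, but missed the adjusted threshold. Pecam1 was between 6.37 and 6.80 in Naive_WT and between 5.91 and 6.23 in Naive_KO (log2 fold change -0.60, adjusted p = 0.0727). Plvap ranged from 7.85 to 8.72 in Naive_WT and from 7.34 to 7.82 in Naive_KO (-0.64, adjusted p = 0.113). These are small gaps between the nearest samples of each pair of groups. Emcn (-0.50), Eng (-0.46) and Tek (-0.43) had adjusted p-values of 0.173, 0.192 and 0.124, and their groups overlapped. Cdh5 had 5.58, 5.71, 5.86 and 5.86 in Naive_WT and 6.07, 6.09, 5.14 and 5.50 in Naive_KO. Its Naive_KO samples fell on either side of Naive_WT, and the log2 fold change was -0.05 (95% confidence interval -0.49 to 0.38). Kdr (0.19) and Tie1 (0.03) had adjusted p-values of 0.607 and 0.949. The median over the 10 genes was -0.48, against -0.00108 over all probes, and became -0.20 with no background correction.

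The comparison of DSS_WT with Naive_WT asks how colitis changes the genes where Mbd2 is present; it shares its samples with both genotype comparisons, so its values do not stand apart from theirs. Eng, Cdh5, Flt1 and Tek rose at an adjusted p under 0.05, 4 of 10 genes beside 5.71% of all tested probes, and 0 of 10 passed the methods' thresholds (1.34% of all probes). Eng had the largest change, from 6.11 ± 0.255 to 7.01 ± 0.175 (SD, n = 4), which is a difference of 0.91 on the log2 scale with an SE of 0.204 and an adjusted p of 0.0103. Its Naive_WT samples read 6.24, 5.91, 6.40 and 5.87, all below the 4 DSS_WT samples. Cdh5 rose by 0.73 (adjusted p = 0.0341), Flt1 by 0.66 (adjusted p = 0.0323) and Tek by 0.65 (adjusted p = 0.0173). Tek read 6.30, 6.17, 6.60 and 6.42 in Naive_WT. In these 4 genes all DSS_WT samples lay above all Naive_WT samples, as did 8.87% of all probes. The other 6 did not pass: Emcn 0.60 (adjusted p = 0.0821), Pecam1 0.41 (0.169), Plvap 0.31 (0.419), Tie1 0.31 (0.292), Esam 0.23 (0.454) and Kdr 0.00 (0.992). Tie1 was detected on 0 of 4 Naive_WT arrays, so its level there is only a bound, and its groups overlapped. The dimmer probe of Cdh5 overlapped too, at 5.25 to 6.00 in DSS_WT and 4.61 to 5.57 in Naive_WT, and did not pass (0.57, adjusted p = 0.0621). The median was 0.51, against -0.0101 over all probes; it was 0.27 with no background correction and 0.77 with the arrays scaled to a common median, which also moved all probes up (by 0.251). Without Naive_WT replicate 10 the count dropped to 1, and without DSS_WT replicate 4 or Naive_WT replicate 12 to 2; it rose to 6 at the most.

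In Mbd2KO mice, DSS came with little difference in these genes. Of the 10, 0 passed an adjusted p of 0.05 in DSS_KO against Naive_KO, 0 passed the methods' thresholds and 0 had an unadjusted p under 0.05 (limma), while 9.42% of all tested probes passed the adjusted threshold, 1.72% the methods' and 24.5% the unadjusted one in either direction. Values ran from -0.20 for Esam to 0.27 for Flt1, with a median of 0.05. The interval for Flt1 was -0.13 to 0.66 and that for Eng -0.20 to 0.67, and the difference from the effect of DSS in WT did not pass the test for either gene (Flt1 -0.40, adjusted p = 0.632; Eng -0.67, adjusted p = 0.41). In 0 of 10 genes were the groups apart, against 15.9% of all probes.

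Whether the genotype difference itself depended on DSS was tested as an interaction, the difference in DSS minus the difference without it. At an adjusted p under 0.05, 0 of 10 genes passed, as did 0% of all 21938 probes, so the larger fall under DSS was not established for any gene. Cdh5 had the largest value at -0.91 (SE 0.292, adjusted p = 0.27), followed by Eng at -0.67, Emcn at -0.64 and Tek at -0.62. These 4 had an unadjusted p under 0.05, as did 10.7% of all probes. All 10 values were below 0, with a median of -0.41, against -0.0122 over all probes. The values of the 10 genes come from the same samples and are not independent of each other.

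The order of the group means was the same in Flt1, Tek, Eng and Plvap: DSS_WT highest, then Naive_WT, DSS_KO and Naive_KO. Flt1 had means of 8.12 ± 0.226, 7.46 ± 0.234, 6.79 ± 0.451 and 6.52 ± 0.0862 (SD, n = 4) in that order. The first and second of these, and the second and last, differed past the adjusted threshold, whereas DSS_KO and Naive_KO did not differ beyond their spread; Naive_WT and DSS_KO were not compared. In Pecam1 the order was again this one, with means of 7.03 ± 0.406, 6.61 ± 0.208, 6.08 ± 0.298 and 6.02 ± 0.143. Esam and Emcn had DSS_KO lowest, and so did Cdh5, whose other 3 groups ran from 6.48 ± 0.382 in DSS_WT to 5.75 ± 0.134 in Naive_WT and 5.70 ± 0.465 in Naive_KO. Over the 8 genes detected on every array, the mean log2 signal was 7.48 ± 0.237 in DSS_WT, 6.91 ± 0.223 in Naive_WT, 6.41 ± 0.273 in DSS_KO and 6.37 ± 0.200 in Naive_KO.

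Within a group, the 8 genes detected on every array tended to be high or low in the same samples, and the dim genes Kdr and Tie1 did not follow them. With each group mean removed, Pearson r over the 16 samples between Kdr and the 8 genes ran from -0.77 for Cdh5 to -0.39 for Esam, and that between Tie1 and the 8 genes from -0.23 to 0.37. Averaged over those 8 genes, the DSS_WT samples read 7.18, 7.46, 7.51 and 7.76, the DSS_KO samples 6.29, 6.57, 6.09 and 6.70, the Naive_WT samples 6.87, 6.71, 7.23 and 6.84, and the Naive_KO samples 6.49, 6.32, 6.11 and 6.55. DSS_WT replicate 4 was the highest of its group in 7 of the 8 genes and replicate 1 the lowest in 6. DSS_KO replicate 7 was the lowest of its group in 7 genes and replicate 8 the highest in 6. In Naive_WT, replicate 11 was the highest in 7 genes. The 8 genes are therefore not 8 separate measurements of a sample.

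Genes related to the 10 were read from further lists, which, like the 10, were chosen with earlier results of these data known. Of 28 other endothelial genes, 21 were tested, and 10 were lower in DSS_KO than in DSS_WT at an adjusted p under 0.05 (3.17% of all tested probes), 0 higher, with a list median of -0.65. Esm1, a proteoglycan secreted by endothelium under VEGF signalling, fell by 1.25 (SE 0.189, adjusted p = 0.00202), and Ptprb, the phosphatase that acts on Tek, fell by 1.22 (adjusted p = 0.00504). Robo4, a receptor that stabilises vessels, fell by 1.18 (adjusted p = 0.00355), and Pcdh17, a protocadherin, fell by 1.18 (adjusted p = 0.0429, groups overlapping). The mean of Pcdh17 was 7.78 in DSS_WT and higher in Naive_WT (8.70) and Naive_KO (8.53). The adhesion receptor Adgrl4 fell by 1.11 (adjusted p = 0.00605) and Nos3, which makes nitric oxide in vessels, fell by 0.88 (adjusted p = 0.0126). Of these, Esm1 was detected on 3 of 5 DSS_KO arrays, Adgrl4 on 2 and Nos3 on 4, so their lower levels lie near the detection limit. Ly6c1 had the value furthest above 0, 0.80 (adjusted p = 0.214). Without DSS, 2 of the 21 were lower (2.77% of all probes), Esm1 at -1.19 (adjusted p = 0.00209, detected on 1 of 4 Naive_KO arrays) and Robo4 at -0.73 (adjusted p = 0.0425), and the list median was -0.32.

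Ligands and partners of the receptors came from lists of the same kind. Of 6 tested ligands of the VEGF, angiopoietin and endoglin receptors, 0 passed the adjusted threshold in either genotype comparison, with medians of -0.27 with DSS and -0.10 without. Among 13 co-receptors and signalling partners, 2 were lower in DSS_KO, beside 3.17% of all probes: Cav1, which builds caveolae, fell by 1.39 (SE 0.227, adjusted p = 0.00301) and its partner Cavin1 fell by 0.85 (adjusted p = 0.0249). Of 12 endothelial transcription factors, Sox7 (-0.78, adjusted p = 0.0212) and Gata2 (-0.60, adjusted p = 0.0322) were lower, detected on 4 and 1 of 5 DSS_KO arrays, and of 8 Notch genes Hey1 (-0.74, adjusted p = 0.00923). Junction partners of Cdh5, which epithelium also makes, had 0 of 5 past the threshold and a median of -0.12. Of 5 tested lymphatic endothelial genes 0 passed the threshold by genotype, with a median of -0.15 with DSS.

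Among molecules by which vessels hold leukocytes, Selp and Ackr1 were lower in Mbd2KO. Selp, P-selectin of activated endothelium and platelets, had log2 fold changes of -1.58 with DSS (SE 0.267, adjusted p = 0.00359) and -1.53 without (adjusted p = 0.00428). Ackr1, a chemokine receptor of venules, had -0.98 with DSS (adjusted p = 0.0251) and -1.13 without (adjusted p = 0.0146), detected on 4 of 5 DSS_KO and 1 of 4 Naive_KO arrays. These were 2 of 8 tested genes in either comparison, beside 3.17% and 2.77% of all probes, and the medians were -0.36 and -0.13. With DSS, Vcam1 and Icam1 rose in WT by 2.10 and 1.59 (adjusted p = 0.000287 and 0.000823) and in Mbd2KO by 1.60 and 1.30 (adjusted p = 0.00112 and 0.0034); both are also made outside vessels. Neither of the latter passed the threshold between genotypes. Of 8 tested genes for the basement membrane of vessels, Sparc, a collagen-binding matrix protein, was lower in DSS_KO (-1.16, SE 0.251, adjusted p = 0.0141), and Lamb1, a laminin chain, was lower in Naive_KO (-0.62, adjusted p = 0.0395, detected on 1 of 4 Naive_KO arrays), which is 1 of 8 in either comparison beside the same shares of all probes; the medians were -0.58 and -0.22.

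**Figure D3:**
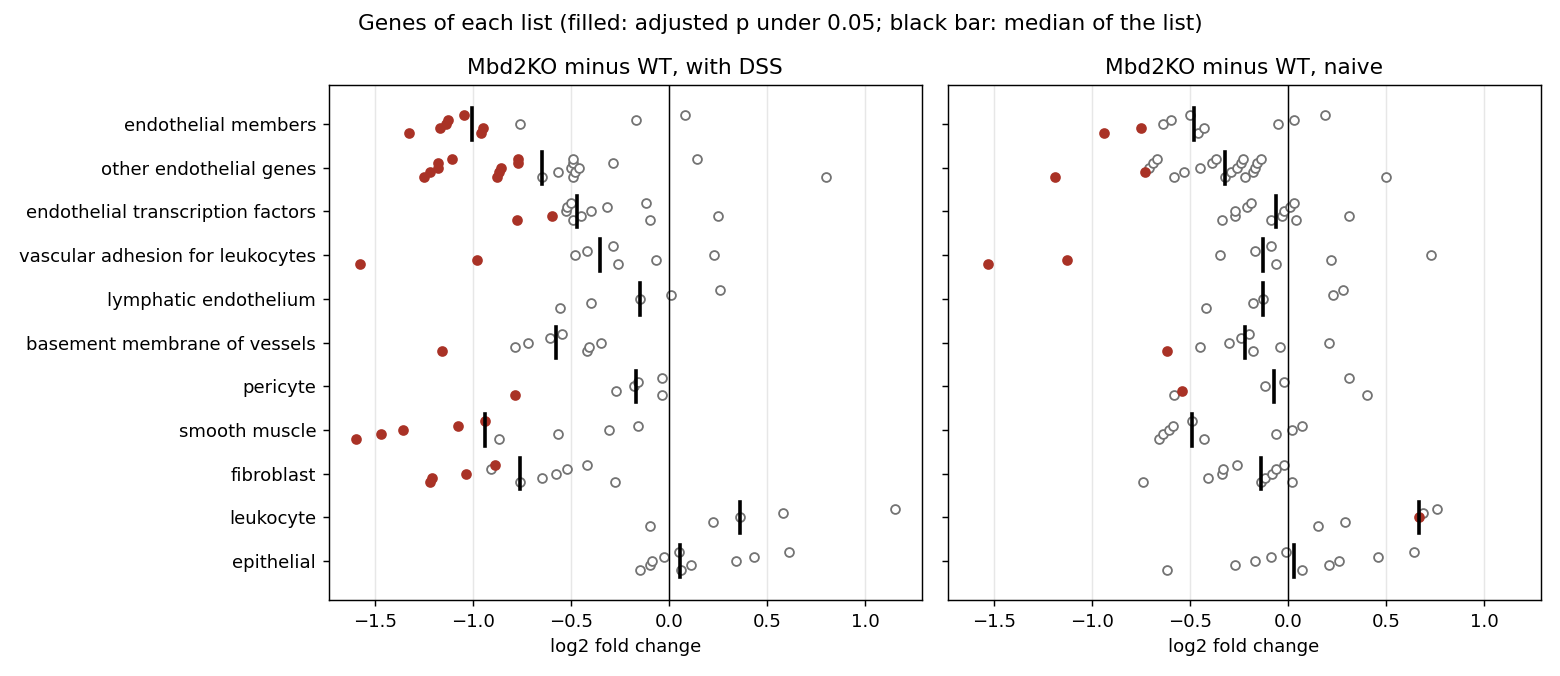
Log2 fold changes of the tested genes of 11 lists for genotype with DSS and without DSS; each circle is a gene, filled where its adjusted p is under 0.05, and the black bar is the median of the list. With DSS the medians are -1.01 for the 10 endothelial genes, -0.94 for smooth muscle, -0.76 for fibroblasts, 0.05 for epithelium and 0.36 for leukocytes.

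With DSS, some markers of smooth muscle, fibroblasts and pericytes were also lower in Mbd2KO, where 3.17% of all probes were lower. Of 11 smooth muscle markers, 9 were tested (Cnn1 and Synpo2 were detected on 0 arrays), and 5 were lower in DSS_KO than in DSS_WT, with a median of -0.94: Tagln (-1.60), Actg2 (-1.47), Myh11 (-1.36), Des (-1.08) and Acta2 (-0.94, adjusted p of 0.00242 to 0.0227). Of 11 fibroblast markers, all tested, 4 were lower, Dpt (-1.22), Col6a2 (-1.21), Col6a1 (-1.04) and Lum (-0.89), and the median was -0.76. Of 6 tested pericyte markers, Notch3 was lower (-0.79, adjusted p = 0.0168, detected on 3 of 5 DSS_KO arrays), the other 5 lay between -0.27 and -0.04, and the median was -0.17. Without DSS, 0 of 9 smooth muscle and 0 of 11 fibroblast markers passed, with medians of -0.49 and -0.14, and 1 of 6 pericyte markers was lower, Kcnj8 (-0.54, adjusted p = 0.0446, detected on 1 of 4 Naive_KO arrays), with a median of -0.07; of all probes 2.77% were lower. The summed signal of the smooth muscle markers, on the linear scale, ran from 10800 to 15300 in DSS_WT, 4750 to 8670 in DSS_KO, 8820 to 15300 in Naive_WT and 7390 to 10100 in Naive_KO. That of the fibroblast markers ran from 8350 to 10400, 5700 to 7130, 3870 to 7820 and 3810 to 5130 in the same order, and that of the 10 endothelial genes from 1470 to 2090, 710 to 1100, 1100 to 1610 and 751 to 963. The part of these cells in the endothelial result was not tested.

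No tested leukocyte or epithelial marker passed the threshold as lower in Mbd2KO. Of 9 leukocyte markers 5 were tested (Itgam was detected on 0 arrays and Ptprc on 3), and 0 were lower in either genotype comparison. Of all tested probes, 2.46% were higher in DSS_KO than in DSS_WT and 2.43% in Naive_KO than in Naive_WT. With DSS 0 of the 5 were higher and the median was 0.36; without DSS Csf1r, a receptor of macrophages, was higher by 0.67 (adjusted p = 0.0486, groups overlapping), and the median was 0.67. Their summed signal ran from 1700 to 3880 in DSS_WT, 2970 to 4950 in DSS_KO, 1170 to 1590 in Naive_WT and 1440 to 2690 in Naive_KO. Of the 2 tested platelet markers Gp1bb was higher in DSS_KO by 0.78 (adjusted p = 0.0102) and in Naive_KO by 0.92 (adjusted p = 0.00404), while Pf4 had -0.12 (adjusted p = 0.844) and -0.14 (adjusted p = 0.799). The other 4 were not tested, Gp9, Gp6, Ppbp and Itga2b, detected on 0, 1, 2 and 3 arrays. The summed signal of Gp1bb and Pf4 ran from 215 to 230 in DSS_WT, 226 to 351 in DSS_KO, 83.7 to 134 in Naive_WT and 100 to 176 in Naive_KO; platelets also carry Pecam1 and Esam, and their part was not tested. Of 10 epithelial markers 0 passed the adjusted threshold between genotypes. Epcam, the protein of the sort, had -0.62 without DSS (adjusted p = 0.0509, groups apart) and 0.11 with DSS (adjusted p = 0.766), and Krt20, a keratin of mature colonocytes, had 0.64 without (adjusted p = 0.0531, groups overlapping) and 0.61 with DSS (adjusted p = 0.0619, groups apart). Their summed signal ran from 66200 to 75000 in DSS_WT, 70800 to 79500 in DSS_KO, 69900 to 82400 in Naive_WT and 72500 to 84700 in Naive_KO. Of 2 tested erythroid markers and 2 tested enteric glial markers 0 passed it.

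**Figure D4:**
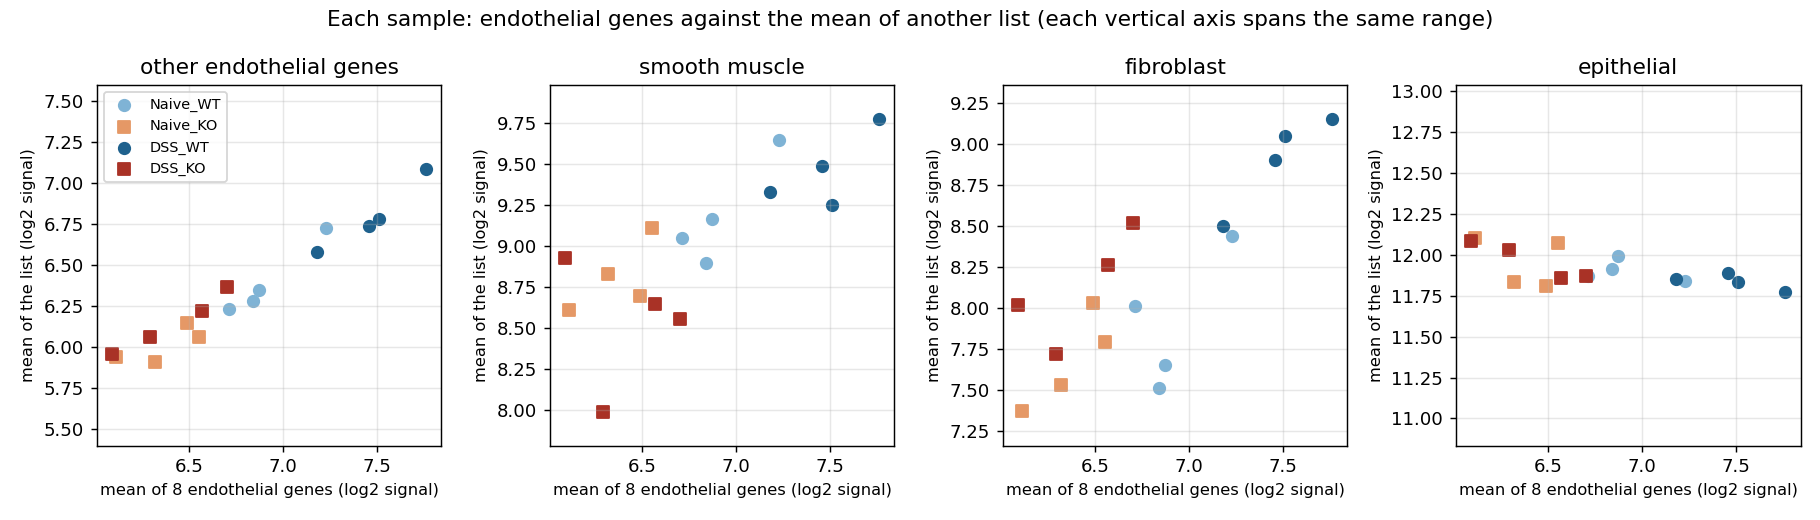
Each point is 1 of the 16 samples; the horizontal axis is the mean log2 signal of the 8 endothelial genes detected on every array, and the vertical axes give the mean log2 signal of 4 other lists, drawn over the same span. The Mbd2KO samples lie at 6.09 to 6.70 on the horizontal axis and the WT samples at 6.71 to 7.76.

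The plot of samples against list means shows that the 8 Mbd2KO samples and the 8 WT samples did not overlap in the mean of the endothelial genes, the nearest being DSS_KO replicate 8 at 6.70 and Naive_WT replicate 10 at 6.71. In the mean of the other endothelial genes the genotypes overlapped across treatments, with the same samples at 6.37 and 6.23. Within each treatment they were apart. These means ran from 5.96 to 6.37 in DSS_KO and 6.58 to 7.09 in DSS_WT, and from 5.91 to 6.15 in Naive_KO and 6.23 to 6.73 in Naive_WT. Fibroblast means ran from 7.72 to 8.52 in DSS_KO, 7.37 to 8.03 in Naive_KO, 7.51 to 8.44 in Naive_WT and 8.50 to 9.15 in DSS_WT. Smooth muscle means ran from 7.99 to 8.93 in DSS_KO, 8.61 to 9.11 in Naive_KO, 8.90 to 9.65 in Naive_WT and 9.25 to 9.78 in DSS_WT. Some samples were extreme in their group in the endothelial, smooth muscle and fibroblast means alike. DSS_WT replicate 4 (7.76, 9.78 and 9.15) and Naive_WT replicate 11 (7.23, 9.65 and 8.44) were highest. Naive_KO replicate 15 was lowest (6.11, 8.61 and 7.37). Elsewhere the lists parted. Smooth muscle markers were lowest in DSS_KO replicate 5 (7.99), a sample in which the endothelial mean was not the lowest of its group. In Naive_WT, smooth muscle and fibroblast means were lowest in replicate 12 (8.90 and 7.51) and the endothelial mean in replicate 10 (6.71). Epithelial means spanned 11.77 to 12.10 over all samples.

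Since Mbd2 binds methylated CpG, the promoters of the genes are described by their CpG; methylation was not measured here. RefSeq promoters (GRCm38.p6) were at hand for 6 of the 10 genes and were read over the 250 bases before the start. Flt1 had 23 CpG, Kdr 16, Tie1 6, Eng 4, Tek 2 and Emcn 1, where the median over 32841 promoters is 6. Of the 4 that fell in DSS_KO, Flt1 lies in the CpG-rich part of that range and Eng, Tek and Emcn in the poor part, whereas Kdr and Tie1, which did not pass, have 16 and 6. The letters GGAA, the core that ETS factors of endothelium recognise, were found on either strand in 6 of 6 and in 93.5% of all promoters, and CAGGAA, which contains GGAA, in 3 of 6 and in 25.7% of all. The promoters of Flt1 and Tek, the CpG-rich and a CpG-poor gene that both fell, and of Kdr, a CpG-rich gene that did not pass, are shown 5′ to 3′ on the strand of the gene, with each CpG in capitals.
Flt1, chr5:147726012-147726261, reverse strand: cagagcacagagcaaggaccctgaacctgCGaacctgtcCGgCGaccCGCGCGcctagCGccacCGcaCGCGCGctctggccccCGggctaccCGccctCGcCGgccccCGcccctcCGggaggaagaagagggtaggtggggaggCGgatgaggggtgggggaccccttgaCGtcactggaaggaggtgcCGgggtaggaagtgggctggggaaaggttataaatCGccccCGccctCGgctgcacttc
Tek, chr4:94739039-94739288, forward strand: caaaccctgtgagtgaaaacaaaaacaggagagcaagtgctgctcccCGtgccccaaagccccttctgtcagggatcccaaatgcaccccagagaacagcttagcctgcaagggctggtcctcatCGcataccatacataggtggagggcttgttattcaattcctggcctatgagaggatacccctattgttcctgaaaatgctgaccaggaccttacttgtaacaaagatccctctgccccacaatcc
Kdr, chr5:75978456-75978705, reverse strand: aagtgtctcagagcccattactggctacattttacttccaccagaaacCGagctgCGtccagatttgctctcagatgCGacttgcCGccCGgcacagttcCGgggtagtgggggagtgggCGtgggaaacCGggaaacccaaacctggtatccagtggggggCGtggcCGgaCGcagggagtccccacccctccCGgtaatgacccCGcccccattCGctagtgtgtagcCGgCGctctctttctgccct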

How the data were processed

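RNA of sorted colon epithelium was read on 18 Illumina MouseWG-6 arrays. Per the file headers, the deposited table holds the mean bead intensity of each probe without normalization, a detection p-value, and the bead number and bead standard error, other columns (36) used to describe the arrays. The submitters' processing notes name lumi and limma.

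Intensities of 45281 probes and 936 negative controls were corrected for background and quantile-normalized by neqc, which returns log2 values (limma 3.58.1, R 4.3.3, offset 16). Low signals are compressed by this offset, so fold changes of dim probes are understated. A probe was tested if 4 or more arrays gave it a detection p-value under 0.05 (21938 probes). The arrays 4R and 5R were averaged with 4 and 5, since each differed from its namesake by less (SD of the log2 difference 0.1938 and 0.2356) than any other pair of its group did (0.3341 to 0.4824 and 0.2873 to 0.4193); what R means is not given in the sources used here. A limma model with 4 group means was fitted to 16 samples (empirical Bayes, two-sided), with Benjamini-Hochberg adjustment over all tested probes per contrast, and tested on simulated data. The thresholds of the methods (adjusted p under 0.01, absolute log2 fold change of 1) and an adjusted p under 0.05 were used.

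A gene is given by its brightest tested probe; backgrounds in percent are over probes. All probes of the 10 genes are described; from each list, genes at an adjusted p under 0.05 between genotypes are named, largest first, at most 6; for DSS only some are, besides genes of interest chosen after their values were seen (Ly6c1). The genes and lists were chosen with earlier results of these data known. The labels do not say how the mice were pooled for each sample, so p-values measure the spread between these samples. The number of arrays and beads limits the precision. Summed signals are sums of normalized signals on the linear scale. Alternatives changed the background correction, scaling, filter, repeat arrays, weights, probes and samples in the fit.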

Additional observations from a re-analysis of the deposited data

Results flagged for a closer look

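Over 48 combinations of a tested probe and a group, 2 had a sample far from the other 3 by Dixon's ratio (gap over range, at the 95% critical value for 4 samples); chance gives about 1 in 20. Tek in DSS_WT replicate 1 was at 6.85, below the nearest sample at 7.06 (ratio 0.855), and this sample stood nearest to DSS_KO. Tie1 in Naive_WT replicate 9 was at 4.92, above the nearest at 4.72 (ratio 0.834), in a group where the probe was detected on 0 of 4 arrays.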

How the results depend on the processing

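The count of genes lower in DSS_KO than in DSS_WT at an adjusted p under 0.05 stayed at 7 or 8 over 11 other settings and over 16 fits that left out 1 sample each. By the methods' thresholds it was 5, and it moved to 0 with no background correction, 2 with an offset of 50 and 3 with no filter on dim probes, and up to 7 with repeat arrays as samples of their own; leaving out 1 sample gave 1 to 7. The median of -1.01 became -0.52 with no background correction and -0.73 with the offset of 50 (-1.14 to -0.91 without 1 sample). Without DSS, the genotype count at 0.05 went from 2 to 1 with median scaling and with only the groups of the contrast in the fit, and from 1 to 3 without 1 sample; the median went to -0.20 with no background correction (-0.58 to -0.35 without 1 sample). For DSS in WT, median scaling gave 1 gene by the methods' thresholds and a median of 0.77 in place of 0.51; this scaling moved the median of all probes by 0.251 in WT and 0.249 in Mbd2KO. With no filter the count at 0.05 was 2 in place of 4, and 1 to 6 without 1 sample (median 0.39 to 0.64). For DSS in Mbd2KO and for the interaction the counts stayed at 0, with medians of -0.02 to 0.15 and -0.54 to -0.29 without 1 sample. The cause of these shifts was not tested, except that a larger offset or no correction shrinks fold changes by construction.

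Signs turned for values near 0. Kdr between genotypes with DSS became -0.02 with the repeat arrays left out and -0.03 with sample weights (-0.09 to 0.19 without 1 sample). Kdr for DSS in WT became 0.06 with median scaling and 0.08 with the repeats left out (-0.11 to 0.12 without 1 sample). Cdh5 between naive genotypes became 0.13 with weights (-0.19 to 0.13 without 1 sample), and Tie1 ran from -0.05 to 0.10 without 1 sample. For DSS in Mbd2KO, median scaling gave Cdh5 0.02, Emcn 0.18 and Esam 0.12, and repeats as samples of their own gave Tek -0.01; without 1 sample Emcn ran from -0.16 to 0.07, Pecam1 from -0.03 to 0.19, Plvap from -0.01 to 0.33 and Tek from -0.08 to 0.17. No paired analysis was possible because each replicate number belongs to a single group. The chip as a block was not run, since no column name or header gives the chip. Signal over background limits Kdr and Tie1, whose levels lie near the detection limit.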

Other observations

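Genes outside the 10 whose probe followed the mean of the endothelial genes most closely over the 16 samples were Tril (Pearson r = 0.957), Wwtr1 (0.948), Ttc28 (0.948), Adgrl4 (0.943), Fermt2 (0.941), Adgrf5 (0.941), Cavin3 (0.931), 2810043G13Rik (0.931), Mmrn2 (0.930) and Lin7a (0.926). After each group mean was removed, Adcy4 (0.924), Eln (0.914), Igfbp3 (0.893), Antxr1 (0.892) and Mcam (0.891) came first, followed by Emid1, Rilpl1, Col4a2, Ackr1 and Tedc2 (0.872 to 0.859). Adgrl4, Adgrf5 and Mmrn2 belong to the list of other endothelial genes. Col4a2 belongs to the basement membrane list and Ackr1 to the list of molecules by which vessels hold leukocytes. The remaining genes named here belong to none of the lists. These r values describe arrays that share their groups and are given with no p.

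Basement membrane and fibroblast genes were also compared between DSS and naive samples. In WT 5.71% of all tested probes rose, and in Mbd2KO 9.42% passed an adjusted p of 0.05 in either direction. Of 8 tested basement membrane genes 6 rose in DSS_WT against Naive_WT, Sparc by 1.44 (SE 0.251, limma adjusted p = 0.00212), Col4a2 by 1.29 and Col4a1 by 1.12 among them, and in Mbd2KO 1 rose, Lamb1 by 0.62 (adjusted p = 0.0259, detected on 1 of 4 Naive_KO arrays). Fibroblast markers rose in 9 of 11 in WT and in 0 of 11 in Mbd2KO; the difference between both effects was 0 of 11 and 0 of 8 past an adjusted p of 0.05. Klf2, a transcription factor that flow induces in endothelium and that other cells make too, fell by 1.00 in WT (adjusted p = 0.0120) and by 1.15 in Mbd2KO (adjusted p = 0.00586). Pcdh17 fell in Mbd2KO by 1.93 (adjusted p = 0.00189); in WT its value was -0.92 (adjusted p = 0.0807) with the groups apart, and the difference between both effects did not pass (-1.01, adjusted p = 0.441).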
